A study of Mus musculus with 8 samples.

Results

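Actb, the cytoplasmic beta-actin gene to which the study's real time PCR values were normalized, was set beside other genes commonly used as references and beside Pls1, an actin bundling protein. The set has 9 members, of which 7 are among the 19938 genes tested. They are Actb, Actg1, Pls1, Gapdh, Hprt, Tbp, Ppia, B2m and Ywhaz. They were chosen by name with array values of these 8 livers already known, and Pls1 was added because it was low in OVX mice fed with HFD+WBM, so that its diet difference is given as a description with no test. Those 7 have a probe set that names the gene alone. The other 2, Actg1 and Gapdh, are measured only by probe sets shared with other genes.

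Female C57B1/6J mice were ovariectomized (OVX) at 7 weeks of age, and 4 of them fed with a high fat diet that contained white button mushroom (HFD+WBM) were compared with 4 fed with the high fat diet alone (HFD). All 8 mice therefore lacked ovaries and ate a high fat diet for 3 months. The mushroom diet also held less corn starch, and its effect and that of the mushroom cannot be told apart. Removal of the ovaries takes away the main source of estrogen and leaves what other tissues make. Liver RNA of each mouse was hybridized to 1 array (Affymetrix Mouse Gene 1.0 ST), and the deposited values are log2 expression values, on which a difference of 1 is a 2-fold difference. Sham-operated mice and the real time PCR were not analysed here.

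Beta-actin and gamma-actin, the products of Actb and Actg1, are the actins of nearly every non-muscle cell. Their monomers assemble into filaments that shape the cell cortex, and in hepatocytes a dense cortex surrounds the bile canaliculi, whose microvilli hold filaments bundled by plastins such as Pls1 and by villin. A reference gene in PCR serves as the denominator for other transcripts, so a difference of that gene between groups passes into every ratio formed with it. Transcription of actin genes is known to respond to the amount of free actin monomer through MRTF coactivators and the factor SRF, which binds a DNA element called the CArG box.

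The labelled tissue was checked against its markers. All 12 hepatocyte markers measured, among them Alb and Ttr, lay above the median of all genes, and their mean per mouse was 13.15 to 13.27 on HFD+WBM and 12.94 to 13.14 on HFD. The median over genes was 7.23 to 7.37 on the 8 arrays. HFD replicate 3 stood most apart. The SD over genes of its difference from the mean of the remaining arrays was 0.68, and for no other mouse was it above 0.50. After adjustment over all genes, 0 genes had a p under 0.05 (limma, smallest adjusted p 0.20), and 2341 genes had an unadjusted p under 0.05.

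Sequence upstream of the gene start is shown for 3 members, an actin, the bundling protein and the reference gene with the smallest SD of the 6 on the deposited scale, because the actin regulatory element could be looked for there. RefSeq promoter windows of 250 bases before to 50 after the gene start (GRCm38.p6) were matched by symbol for 7 of the 9 members, with none for Actb and Ywhaz in the table used. The start is the one used for the window. For Gapdh and Pls1, on the minus strand, it lay inside the gene as listed. The whole Gapdh window (125165724-125166023) lay short of that gene's listed end at 125166467. Each window was searched for the CArG box and for TATAAA, on both strands. Bases 110 before to 10 after the start follow, 5′ to 3′ on the gene's strand, with a CArG box or TATAAA in capitals.
Actg1 (chr11:120348486-120348605, minus strand): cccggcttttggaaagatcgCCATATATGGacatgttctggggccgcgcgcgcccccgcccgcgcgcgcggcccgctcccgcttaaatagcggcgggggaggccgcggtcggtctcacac
Pls1 (chr9:95845270-95845389, minus strand): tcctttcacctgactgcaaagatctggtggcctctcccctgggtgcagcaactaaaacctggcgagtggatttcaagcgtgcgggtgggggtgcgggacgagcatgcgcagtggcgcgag
Ppia (chr11:6415757-6415876, plus strand): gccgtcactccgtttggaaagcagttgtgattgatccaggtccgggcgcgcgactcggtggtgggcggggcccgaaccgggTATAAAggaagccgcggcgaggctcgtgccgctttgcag
The Actg1 window held the only CArG box among the windows of the 7 members, and its first base lay at −90 counted from the gene start. Such a box was present in 1.63% of the 32851 windows in the table. TATAAA was found in the windows of Ppia, where it began at −29, and of B2m, on the opposite strand, and in 13.6% of all windows. A match of letters is a description and not a measured site.

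Actb was lower in every OVX mouse fed with HFD+WBM than in any fed with HFD. Its log2 values were 12.87, 12.51, 12.52 and 12.72 in HFD+WBM livers, against 12.98, 12.89, 13.00 and 13.05 in HFD livers. The means were 12.65 ± 0.17 on HFD+WBM and 12.98 ± 0.06 on HFD (SD, n = 4 each), a log2 difference of −0.33 ± 0.14 (SE) or 1.25-fold lower. The closest pair was HFD+WBM replicate 1 and HFD replicate 2, and the HFD+WBM mice were the more scattered group. The 95% interval of the difference ran from −0.65 to −0.01, so that its far bound was a 1.57-fold lower level. The unadjusted limma p was 0.046 and the adjusted p over all genes 0.42, so that Actb did not pass the adjusted test. An exact two-sided permutation test of the 4 against 4 mice gave p = 0.029, the smallest such a design allows. In the same fit 11.7% of all genes had an unadjusted p under 0.05 and 6.9% were lower at that p, while 5.02% of all genes had every HFD+WBM mouse below every HFD mouse.

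The unadjusted p of Actb was near the threshold and moved with the setting. It lay above 0.05 when any mouse other than HFD+WBM replicate 1 was left out, though each such fit also had fewer mice. In those 7 fits the difference was −0.36 to −0.28, with −0.32 without HFD replicate 3. Without HFD+WBM replicate 1 it was −0.40. With each array centred on its median it was −0.31, and the unadjusted p of limma also missed 0.05. That p was also above 0.05 with array weights (0.057), a replicate block (0.089) or the reference-gene mean as the scale (0.35). It was 0.032 with quantile normalization, 0.030 among the 50% brightest genes, and 0.0497 and 0.020 with offsets of 16 and 64. With limma's prior variance following the signal it was 0.0057, and the methods' t-test gave 0.012. The adjusted p was 0.18 or more in each of these settings.

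**Figure D1:**
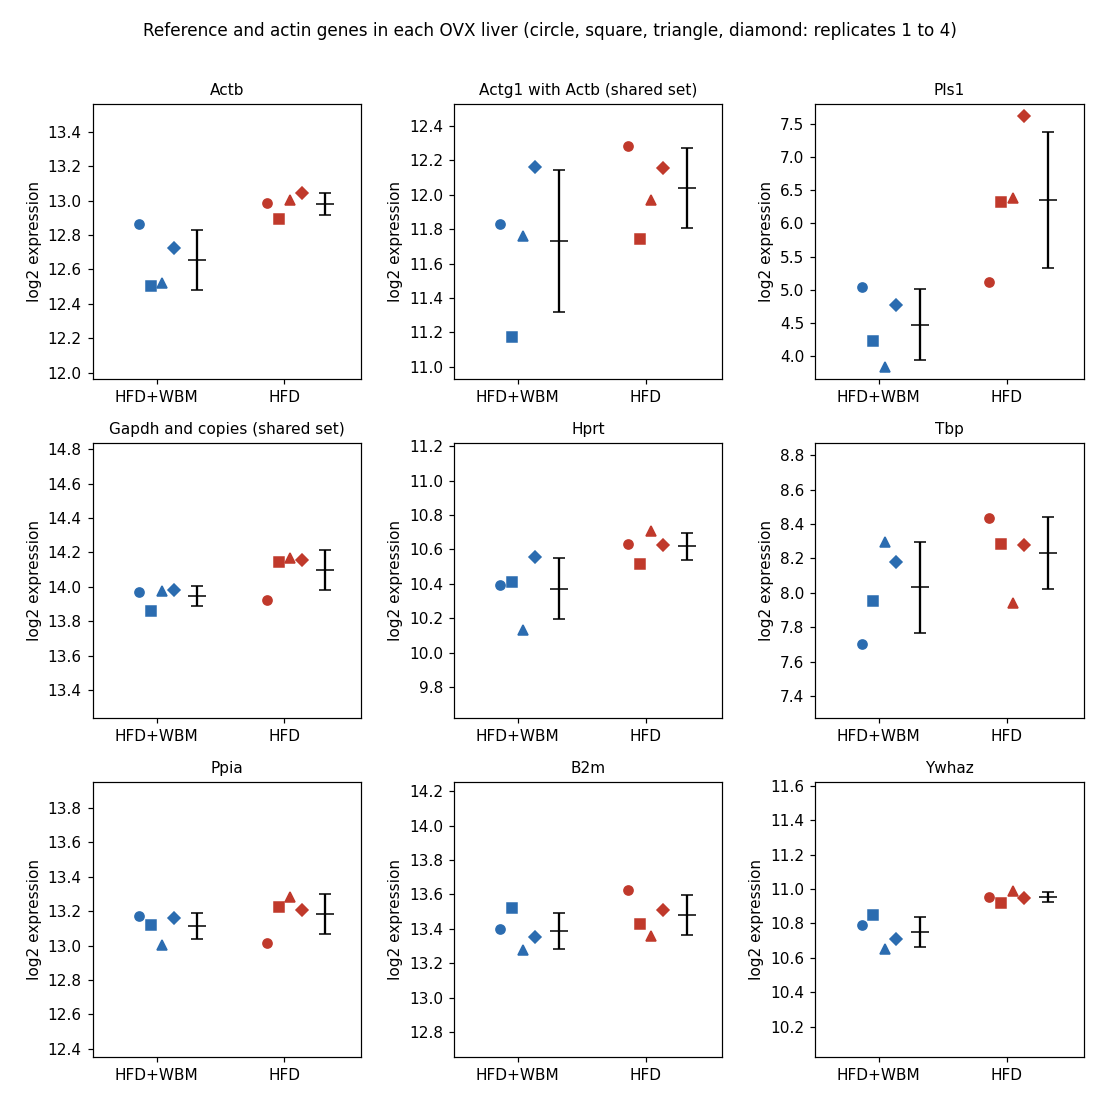
Log2 expression of the 9 members in each liver, with HFD+WBM (blue) left of HFD (red); the 4 symbols are replicates 1 to 4, and the bars give the mean and SD (n = 4 each). Each panel spans 1.6 log2 units except Pls1, whose axis is wider. Actb, Ywhaz and Pls1 had all HFD+WBM mice below all HFD mice.

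Ywhaz, which encodes the zeta member of the 14-3-3 proteins that bind phosphorylated partners, was the other reference gene whose groups were apart. Its values were 10.79, 10.85, 10.65 and 10.71 in HFD+WBM livers, against 10.95, 10.92, 10.99 and 10.95 in HFD livers. The HFD mice were nearly equal to each other and all above the highest HFD+WBM mouse. The difference was −0.20 ± 0.13 (SE), or 1.15-fold lower, with a 95% interval from −0.49 to 0.08 and a limma p of 0.14 (adjusted 0.54). The exact permutation p of the 4 against 4 mice was 0.029. limma draws each gene's variance toward one shared by all genes, so its standard error is wider here than this gene's own scatter within diets would give. The methods' t-test (equal variances), which uses the gene's own scatter, gave an unadjusted p of 0.0044 (adjusted 0.25). A second Ywhaz probe set had a difference of −0.14, and there the groups overlapped.

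Hprt, which recovers hypoxanthine and guanine for nucleotide synthesis, had values of 10.39, 10.41, 10.13 and 10.56 in HFD+WBM livers, against 10.63, 10.51, 10.71 and 10.63 in HFD livers. 3 of 4 HFD+WBM mice lay below the lowest HFD mouse, and replicate 4 lay inside the HFD range. The difference was −0.25 ± 0.14 (SE), or 1.19-fold lower, with a 95% interval from −0.57 to 0.08. Hprt did not pass the test (limma p = 0.12, adjusted 0.51), and the exact permutation p was 0.057.

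Tbp, the TATA-binding protein of the transcription preinitiation complex, was the dimmest of the reference genes. Its values were 7.70, 7.95, 8.29 and 8.18 in HFD+WBM livers, against 8.43, 8.28, 7.94 and 8.28 in HFD livers. The groups overlapped widely, with 1 HFD mouse as low as the second lowest HFD+WBM mouse. The difference was −0.20 ± 0.18 (SE), with a 95% interval from −0.61 to 0.20 (limma p = 0.29, adjusted 0.66, exact permutation p = 0.31).

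Ppia, or cyclophilin A, a prolyl isomerase that binds cyclosporin, had the smallest SD over the 8 mice of the 6 reference genes. Its values were 13.17, 13.12, 13.00 and 13.16 in HFD+WBM livers, against 13.01, 13.22, 13.28 and 13.21 in HFD livers. The lowest mouse of each diet was at nearly the same level, and the highest of the 8 mice was 1.21-fold above the lowest. The difference was −0.07, with a 95% interval from −0.37 to 0.23 (limma p = 0.62, adjusted 0.86, exact permutation p = 0.34). Over the 7 probe sets that name Ppia alone, the difference was −0.03 to −0.11. The SD over the 8 mice of these sets ran from 0.098 to 0.149, some above the 0.113 of B2m. The place of Ppia among the reference genes thus also depended on the probe set used.

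B2m, the light chain of MHC class I molecules, had values of 13.40, 13.52, 13.28 and 13.35 in HFD+WBM livers, against 13.63, 13.43, 13.36 and 13.51 in HFD livers. The groups overlapped, and the highest HFD+WBM mouse was above 3 of 4 HFD mice. The difference was −0.09, with a 95% interval from −0.40 to 0.21 (limma p = 0.51, adjusted 0.80, exact permutation p = 0.29).

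The 6 reference genes with their own probe set thus all had a difference below 0, as did 49.3% of all genes. Their median difference was −0.20 against 0.01 for all genes, and their differences were 1.05-fold to 1.25-fold. Only Actb had an unadjusted p under 0.05 and 0 of 6 passed the adjusted test. None reached 2-fold. At the study's thresholds, an unadjusted p under 0.05 with at least 2-fold, 152 genes or 0.762% were past both, 99 lower and 53 higher. The level of a gene moved with these values. Actb, Hprt, Ppia, B2m and Ywhaz were in the brightest 10% of genes by mean, in which the median difference was −0.04, 56.3% of genes had a difference below 0 and 9.58% had all HFD+WBM mice below all HFD mice. The part of brightness in the members' differences was not tested.

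Gapdh, a glycolytic enzyme, has many processed copies in the mouse genome, and each of its 25 probe sets names 4 to 8 genes, so that a signal cannot be assigned to Gapdh alone. The brightest of them had values of 13.97, 13.86, 13.97 and 13.98 in HFD+WBM livers, against 13.92, 14.14, 14.17 and 14.15 in HFD livers. 3 of 4 HFD mice were above all HFD+WBM mice, and HFD replicate 1 was among the HFD+WBM values. The difference was −0.15 (exact permutation p = 0.11), and over the 25 sets it ran from −0.28 to −0.15. These sets are not independent, since their lowest pairwise correlation over the 8 arrays was 0.96.

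Actg1, gamma-actin, was measured only by 4 probe sets that name Actb as well. The brightest had values of 11.83, 11.18, 11.76 and 12.16 in HFD+WBM livers, against 12.28, 11.74, 11.97 and 12.16 in HFD livers. The groups overlapped, with HFD+WBM replicate 2 lowest and HFD+WBM replicate 4 level with the HFD replicate of that number. The difference was −0.31 (exact permutation p = 0.29), and over the 4 sets it ran from −0.33 to −0.30, close to that of the probe set of Actb but with a larger SD over the 8 mice, 0.34 to 0.35.

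Pls1, fimbrin or plastin 1, which crosslinks actin filaments into bundles in microvilli, was dim and variable. Its values were 5.04, 4.23, 3.84 and 4.77 in HFD+WBM livers, against 5.11, 6.32, 6.39 and 7.62 in HFD livers. All HFD+WBM mice were below all HFD mice, but HFD+WBM replicate 1 and HFD replicate 1 nearly met, and HFD replicate 4 stood well above the rest of its group. The means were 4.47 ± 0.54 on HFD+WBM and 6.36 ± 1.03 on HFD (SD, n = 4 each), 3.70-fold lower, or −1.89 on the log2 scale. Pls1 lay above only 12.8% of genes by mean, and 98.8% of genes had a smaller SD over the 8 mice. With an offset of 64 added before the log, which damps dim probe sets, the difference was −0.81, and leaving out each mouse moved it between −2.30 and −1.47.

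The other plastins differed less. Pls3 averaged 10.31 on HFD+WBM and 10.37 on HFD, and Lcp1, the plastin of blood cells, averaged 9.74 on HFD+WBM and 9.90 on HFD, and neither passed the test. Vil1, villin, averaged 7.94 on HFD+WBM and 7.75 on HFD and did not pass it either. These 3 genes were picked after their values were seen.

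The reference genes were ordered by their SD over the 8 mice, which counts diet and mouse scatter together and is a description with no test. The order was Ppia (0.0987), B2m (0.113), Ywhaz (0.124), Hprt (0.183), Actb (0.213) and Tbp (0.245), against a median of 0.318 for all genes. All 6 thus had an SD below the median of all genes, most of which were dimmer. Only 0.311% of genes had a smaller SD than Ppia, and 18.3% had a smaller SD than Actb. Within the brightest 10% of genes, where the median SD was 0.18, 67.7% had a smaller SD than Actb. That share was 51.0% for Hprt, 11.3% for Ywhaz, 6.27% for B2m and 2.81% for Ppia.

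The place of a gene depended on the measure and the scale. Ppia gave the first place to B2m with each array centred on its median and when HFD replicate 1 was left out, and to Ywhaz when a gene's probe sets were averaged or with the mean of the reference genes as the scale. Within diets, where the diet difference is taken out, the pooled SD was smallest for Ywhaz (0.065) and put Actb at 4 of 6 (0.13). By geNorm M, the mean SD of a gene's log ratios to the other references, Ywhaz was first (0.148), Actb 5 of 6 (0.192) and Tbp last (0.281). With the shared Gapdh and Actg1 probe sets added after their values were seen, Gapdh came between B2m and Ywhaz, Actb was 6 of 8 and Actg1 last. Actb was last of the 6 when HFD+WBM replicate 1 was left out, and 4 of 6 when HFD+WBM replicate 2 was.

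**Figure D2:**
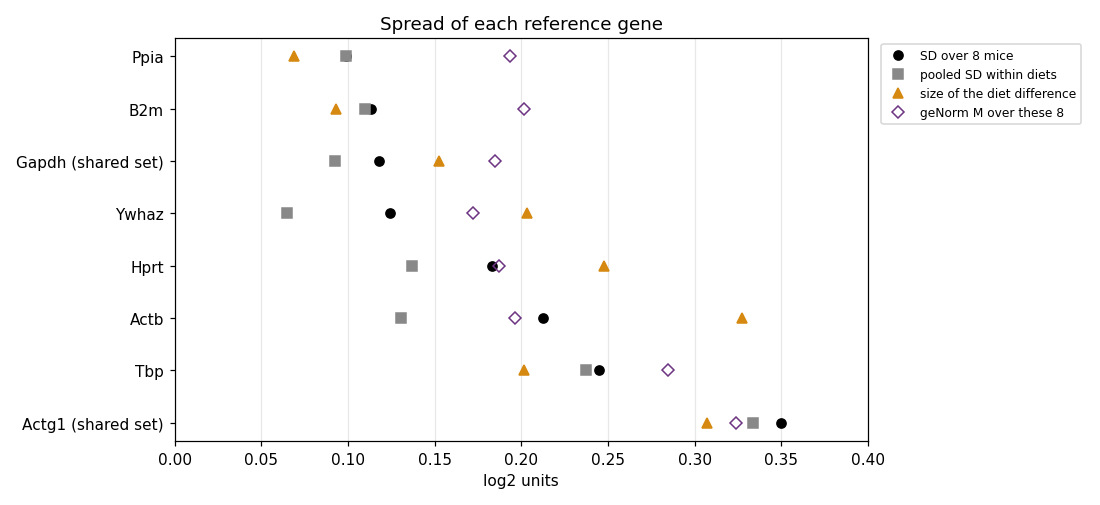
Spread of 8 reference genes in log2 units: SD over the 8 mice (black circles, which set the order from the top), pooled SD within diets (grey squares), size of the diet difference (orange triangles) and geNorm M (purple diamonds). Actb had the largest diet difference, 0.33, while its pooled SD within diets, 0.13, was near that of Hprt.

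Among 23 other genes in use as references, 2 were lower and 1 higher at an unadjusted p under 0.05, and 21 had a difference below 0, with a median of −0.14. Over all genes 6.9% were lower and 11.7% lower or higher at that p. A difference below 0 was found for 49.3% of all genes and 56.3% of the brightest 10%. Gusb, a lysosomal glucuronidase, averaged 8.47 on HFD+WBM and 8.93 on HFD, a difference of −0.46. Pgk1, a kinase of glycolysis, was lower by −0.29, and Alas1, the first enzyme of heme synthesis, was higher by 0.47. When these 23 and the 6 were ordered together by SD, Eef1a1, a translation elongation factor, was first (0.054), Ppia 3 of 29, B2m 6, Ywhaz 11, Hprt 18, Actb 23, Tbp 24 and the transferrin receptor Tfrc last (0.424).

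Ratios between the reference genes showed no separation of the diets. Of 15 pairs, 0 had groups that did not overlap. The SD of the log ratio over the 8 mice was smallest for B2m over Ywhaz (0.104) and largest for Actb over Tbp (0.305). The smallest exact permutation p over the 15 pairs was 0.057, for Actb over Ppia with a difference of −0.26, which became 0.43 after adjustment over the pairs. Actb minus the mean of the other 5 was 1.77, 1.34, 1.45 and 1.53 in HFD+WBM livers, against 1.65, 1.62, 1.75 and 1.73 in HFD livers. HFD+WBM replicate 1 was the highest of all 8 and the other 3 were below all HFD mice. The difference was −0.16 (exact permutation p = 0.17).

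Fasn, fatty acid synthase, and Elovl6, which elongates its product, are the genes whose PCR values the study related to beta-actin, and the array values were put over each reference gene in turn. Elovl6 over Actb was −0.53, −1.87, −1.78 and −2.37 (log2 ratio) in HFD+WBM livers, against −1.14, 0.34, 0.00 and −0.09 in HFD livers. Replicate 1 of HFD+WBM was above replicate 1 of HFD, and the other mice of the diets were apart. Elovl6 was 3.35-fold lower on HFD+WBM by the array value alone and 2.67-fold lower over Actb (exact permutation p = 0.057 for each). Fasn was 2.55-fold lower alone (exact permutation p = 0.086) and 2.03-fold lower over Actb (p = 0.11, exact). None of these passed the threshold in this permutation test, whose smallest possible p with 4 against 4 mice is 0.029. The log2 difference by the array value alone was −1.74 ± 0.54 (SE) for Elovl6 and −1.35 ± 0.55 (SE) for Fasn. By its own test and cutoffs the paper reported both genes as significantly lower on these arrays.

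Over the 6 reference genes the log2 difference of Fasn ran from −1.28 with Ppia to −1.02 with Actb, or 2.43-fold to 2.03-fold lower, and that of Elovl6 from −1.67 with Ppia to −1.42 with Actb, or 3.19-fold to 2.67-fold lower. The exact permutation p was 0.086 to 0.14 for Fasn and 0.057 for Elovl6 with each of the 6. Actb thus gave the smallest fold and Ppia the largest of the 6 denominators for both genes, in the order that their own differences set.

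**Figure D3:**
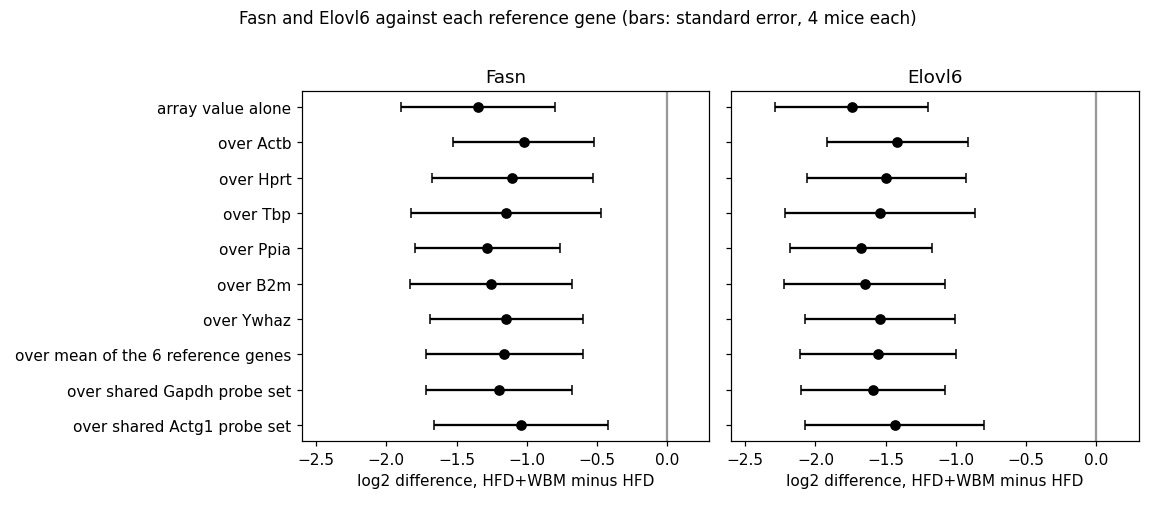
Log2 difference between HFD+WBM and HFD for Fasn (left) and Elovl6 (right), by the array value alone and over each reference gene or set; bars are the standard error (4 mice each) and the vertical line marks no difference. All differences lay below 0, and of the 6 reference genes with their own probe set Actb brought them closest to it.

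Used as the scale of the whole array, Actb moved the counts more. With each array scaled to Actb the median difference of all genes was 0.33, and 366 genes were past the study's thresholds, 37 lower and 329 higher, against 152 genes, 99 lower and 53 higher, on the deposited scale. With the mean of the 6 reference genes as the scale the median of all genes was 0.20 and 204 genes were past them, 60 lower and 144 higher. On that scale Ppia (0.12) and B2m (0.10) had differences above 0, and Actb was at −0.14. On the Actb scale the other 5 reference genes were all above 0, between Hprt (0.08) and Ppia (0.26), and none passed the unadjusted test.

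Few genes of the actin filament passed the unadjusted test. Of 35 genes of filament turnover, 3 were lower and 0 higher at an unadjusted p under 0.05, near the 6.9% of all genes that were lower. A difference below 0 was found for 32 of the 35, against 49.3% of all genes, with a median of −0.23. The median level of the list was 9.49, and of genes with a mean of 8.93 to 9.89, 56.4% had a difference below 0. Tmsb4x, thymosin beta 4, which holds actin monomers, averaged 10.25 on HFD+WBM and 10.79 on HFD. Tpm1, a tropomyosin that lies along filaments, averaged 8.74 on HFD+WBM and 9.21 on HFD. Myl6, a light chain of non-muscle myosin, averaged 10.57 on HFD+WBM and 10.93 on HFD. The count of lower genes was 0 to 5 when each mouse was left out. It was 0 without HFD+WBM replicate 3, 1 without HFD replicate 4, and 5 without HFD replicate 1 or HFD+WBM replicate 2. With each array scaled to Actb the median of this list was 0.10, below the 0.33 of all genes.

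Of 18 genes of filament bundling and microvilli, 3 were lower and 0 higher and 10 had a difference below 0, with a median of −0.06. Over all genes 6.9% were lower at an unadjusted p under 0.05, and 49.3% had a difference below 0. The 3 lower genes of this list were Msn (−0.52), which links filaments to the membrane, Flna (−0.53), which crosslinks them, and Actn4 (−0.32), another crosslinker. Only 1 was lower when HFD+WBM replicate 3 or HFD replicate 4 was left out. Of 9 other actins and actin-related genes, Actc1, cardiac actin, was lower (−0.47), and the median was −0.24. Of 9 genes of SRF and its actin-sensing coactivators and targets, 2 were lower, Zyx (−0.34) and Vcl (−0.42), both of focal adhesions, and the median was 0.05, with 4 of 9 below 0. Leaving out HFD replicate 3, the array that stood most apart, turned this median to −0.30 with 3 lower and 2 higher, and over all mice left out it ran from −0.30 to 0.15 with 0 to 3 lower.

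The families of the other references gave counts of the same kind, beside 6.9% of all genes lower at an unadjusted p under 0.05. Of the 6 other 14-3-3 genes Ywhag was lower (−0.35), with a median of −0.21. Of 13 cyclophilins Ppih was lower (−0.50), with a median of −0.18. Of 18 genes of MHC class I presentation 3 were lower, Hfe (−0.39), Mr1 (−1.11) and Psmb9 (−0.46), with a median of −0.21. Of 16 genes of glycolysis Pklr (−0.93) and Pgk1 were lower, with a median of −0.21. Of 17 genes of purine salvage and synthesis Aprt was lower (−0.45), and of 20 genes of TFIID and its partners Taf12 was lower (−0.45), with medians of −0.09 and −0.15. The MHC class I count was 5 when HFD replicate 2 was left out, 1 when HFD+WBM replicate 2 or 4 was, and 0 when HFD+WBM replicate 3 or HFD replicate 3 or 4 was. With each mouse left out the counts of lower genes ran from 0 to 2 for the other reference genes, the other actins and the cyclophilins, from 0 to 1 for the 14-3-3 and TFIID genes and from 1 to 2 for glycolysis and purine genes. With all mice none of the 6 families had a gene higher at that p, and 0 of the genes in any list passed the adjusted test.

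**Figure D4:**
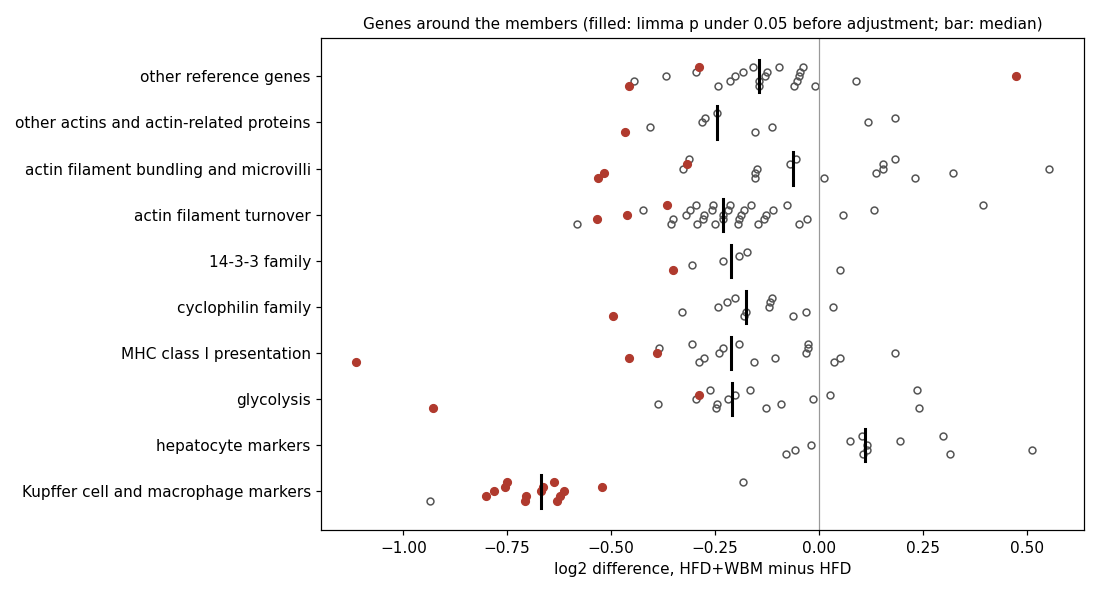
Log2 difference (HFD+WBM minus HFD) of each measured gene in 10 lists around the members, 1 point per gene; filled points have an unadjusted limma p under 0.05 and black bars are list medians. Most points of the actin and reference lists lie between −0.5 and 0.25, the Kupffer cell and macrophage markers have a median of −0.67, and the hepatocyte markers 0.11.

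Markers of several other liver cell types were lower on HFD+WBM at the unadjusted p, most of all those of macrophages. Over all genes 6.9% were lower at an unadjusted p under 0.05, and 49.3% had a difference below 0. Of 15 Kupffer cell and macrophage markers 13 were lower at an unadjusted p under 0.05, with a median of −0.67, and 15 of 15 had a difference below 0. C1qc (−0.80), Cd68 (−0.75) and Lyz2 (−0.76) had the smallest p, and none of the markers passed the adjusted test. The mean of the list per mouse was 8.57 to 9.03 in HFD+WBM livers and 9.02 to 9.70 in HFD livers, and 13 of the 15 markers were above the median of all genes. Of 13 stellate cell markers 5 were lower, among them Col1a1 (−0.97) and Col1a2 (−0.72), and Hand2 was higher (0.59), with a median of −0.46. The count of lower stellate markers was 2 without HFD+WBM replicate 2 or 3 or HFD replicate 3 or 4, and 7 without HFD replicate 1, and the median ran from −0.59 to −0.28 over the mice left out. Of 11 sinusoidal endothelial markers 3 were lower, Tek (−0.40), Cdh5 (−0.51) and Lyve1, which averaged 7.65 on HFD+WBM and 8.65 on HFD, with a median of −0.34, and 1 was lower without HFD+WBM replicate 1 or 3 or HFD replicate 4. Of 8 cholangiocyte markers and 13 lymphocyte and neutrophil markers 0 were lower or higher, with medians of −0.22 and −0.05. In bulk liver fewer cells of a type and less RNA per cell cannot be told apart, and the part of these cells in the Actb and Pls1 values was not tested.

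The marker counts also depended on the scale. With each array scaled to Actb, 1 of 15 Kupffer cell and macrophage markers was lower, and 9 of 12 hepatocyte markers were higher, against 13 lower and 0 higher on the deposited scale. With the mean of the 6 reference genes as the scale these counts were 10 lower and 5 higher. Of all 19938 genes, 5043 had an unadjusted limma p under 0.05, lower or higher, on the Actb scale. With the mean of the reference genes as the scale 3676 had, against 2341 on the deposited scale. The median difference of all genes on these 3 scales was 0.33, 0.20 and 0.01 in that order. Leaving out each mouse gave 11 to 14 lower macrophage markers on the deposited scale, with 12 without HFD replicate 3.

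Likeness to Actb and Pls1 was measured by Pearson's r over the 8 arrays among the 9969 genes above the median level, as a description, since both diets enter it and the points share the diet difference. The genes most like Actb were Dhdds (0.986), which makes the dolichol precursor, Psmd1 (0.982), a proteasome subunit, Xpnpep1 (0.981), an aminopeptidase, Senp7 (0.980), a SUMO protease, and Srpk2 (0.978), a kinase of splicing factors. With the diet means taken out their r was 0.93 to 0.96. Those most like Pls1 were Anxa5 (0.985), a membrane-binding annexin, Hsd17b12 (0.978), of fatty acid elongation, Ehd4 (0.973), of endosome traffic, Sqstm1 (0.972), an autophagy receptor, and Vps29 (0.971), of the retromer. Actb and Pls1 had an r of 0.84 with each other, and 0.54 with the diet means taken out. Among the reference genes the r of Actb was 0.80 with Hprt, 0.77 with Ywhaz and 0.11 with Tbp. With the diet means taken out these were 0.52, 0.16 and −0.49, and that with Ppia, 0.39, was then above that with Ywhaz.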

How the data were processed

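Livers of 8 OVX mice were profiled, each on a single-colour array. Background correction, normalization and the IterPLIER summary to 1 value per probe set were the authors' steps (Affymetrix Power Tools 1.8.6, a version the submitters' processing notes also give). The values the authors deposited are on a log2 scale, and the sources used here do not say whether an offset preceded the log. Of 28944 probe sets, 21789 name 1 gene, 1621 several and 5534 none in the platform annotation. Of the 21789, 21698 matched GRCm38.p6 by gene number and 91 kept the annotation's name. Per gene the brightest probe set was used (999 genes had more than 1). The sample titles name each mouse as control or WBM, and the paper gives the high fat diet and the surgery. Diets were compared with limma 3.58.1 (R 4.3.3), diet as the only term, with Benjamini-Hochberg adjustment over all genes. The fit was tested on simulated data. Permutation tests were exact and two-sided.

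The members and lists were chosen with earlier results of these data known. Tests planned for 8 reference genes could be run on 6. Named genes are the members, Fasn, Elovl6, up to 3 genes of smallest p per list and the 5 most like Actb and Pls1. Pls3, Lcp1, Vil1, Alb, Ttr, Eef1a1 and Tfrc fall outside this rule and were chosen after their values were seen. Array number limits the precision. Replicate numbers did not pair the mice (correlation of deviations −0.12 to −0.02). Alternatives were other scalings, offsets, filters, variance models, the methods' t-test (equal variances), a replicate block, leaving out each mouse, a 1.5-fold threshold and, chosen after seeing the data, the shared probe sets in the order.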

Additional observations from a re-analysis of the deposited data

Results flagged for a closer look

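Of 22 groups of 4 mice examined for a sample apart from the rest, 2 had one, both in the shared probe set of Gapdh, and chance alone gives about 1 in 20. HFD+WBM replicate 2 was at 13.86 (log2), below the other HFD+WBM mice at 13.97 to 13.98. HFD replicate 1 was at 13.92, below the other HFD mice at 14.14 to 14.17. The cause was not tested.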

How the results depend on the processing

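The number of genes past the study's thresholds was 152. It was 366 scaled to Actb, 65 with an offset of 16, 32 with an offset of 64 and 43 among the 50% brightest genes. It was 250 over all rows of the value table, 98 by the t-test with equal variances and 890 at 1.5-fold. When each mouse was left out it was 154 to 235, with 235 without HFD replicate 2. The number of reference genes with an unadjusted p under 0.05 was 1. It was 0 with each array centred on its median, scaled to Actb, scaled to the mean of the reference genes, with array weights or with a replicate block. By the t-test with equal variances it was 3 (Actb, Hprt and Ywhaz), and it was 0 to 1 when each mouse was left out. Of all 19938 genes, 2596 had an unadjusted p under 0.05 by that t-test, against 2341 by limma. The rank of Actb by SD was 5 of 6. It was 6 with an offset of 64, 4 by the pooled SD within diets, 6 of 8 with the shared probe sets added after seeing the data, and 4 to 6 when each mouse was left out. Reference genes changed sign under 2 of the scalings. With the mean of the reference genes as the scale they were Ppia (0.12) and B2m (0.097), and with Actb as the scale Hprt (0.080), Tbp (0.13), Ppia (0.26), B2m (0.23) and Ywhaz (0.12). With the replicate block, which cannot move a mean difference here, the unadjusted p of Actb (difference −0.33) was above 0.05, and 178 genes were past the thresholds. When limma's prior variance followed the signal, the adjusted p of Actb was 0.18, and 139 genes had one under 0.05. That count was 0 with limma's prior variance shared by all genes and 0 by the t-test with equal variances. It was 2 and 80 with offsets of 16 and 64, and 19 among the brightest genes. Fasn and Elovl6 over Actb stayed below 0 when each mouse was left out, −1.43 to −0.78 and −1.78 to −1.17. Apart from scaling, which acts by construction, the causes were not tested. Dim probe sets such as that of Pls1 carry no background limit here.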
